A study of Neurospora crassa with 6 samples.

Results

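The 4 catalase genes cat-1, cat-2, cat-3 and cat-4 and the 2 superoxide dismutase genes sod-1 and sod-2 of the filamentous fungus Neurospora crassa were followed in 6 RNA sequencing libraries. They were chosen by gene name and locus among the 9757 genes of the deposited count table, and all 6 were found and tested. Superoxide dismutases turn superoxide, a by-product of respiration and of NADPH oxidases, into hydrogen peroxide and oxygen, and catalases break hydrogen peroxide down to water and oxygen. In this fungus sod-1 encodes the cytosolic copper-zinc enzyme and sod-2 the mitochondrial manganese enzyme. The large-subunit catalases CAT-1 and CAT-3 are known as the main enzymes of asexual spores (conidia) and of growing hyphae, CAT-2 is a bifunctional catalase-peroxidase, and CAT-4 is a small-subunit catalase.

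The libraries came from mycelium after overnight growth in Vogel's minimal medium with 1.5% sucrose, with 3 libraries of a double knockout of cac-1 and suz-12 and 3 of a single knockout of cac-1. By the labels both strains lack cac-1, which encodes a subunit of the histone chaperone chromatin assembly factor, and they differ by suz-12, a subunit of Polycomb repressive complex 2, which methylates histone H3 at facultative heterochromatin. The labels do not state whether replicates were separate cultures, so the spread between libraries may be technical. A wild type was not analysed here, and no value below is relative to one.

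Total counts ran from 18993719 to 28327383 in the double knockout and from 7989915 to 25315143 in the single knockout. No count fell on cac-1 (NCU04198) in any library, where 3 counts would correspond to 0.351 CPM in the shallowest. NCU05460, read here as suz-12 from general knowledge, kept 2.68 ± 0.4998 CPM in the double knockout, against 8.39 ± 0.918 CPM in the single knockout (SD, n = 3 each). Whether the remaining reads lie outside the deleted stretch cannot be seen in counts per gene, so the deletion of suz-12 is taken from the labels. CPM are counts scaled to a common library size with TMM factors. Each strain has its own run of consecutive library numbers, and an effect of library preparation cannot be told apart from the strain. In bulk RNA, fewer cells of a type and less RNA per cell cannot be told apart either.

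The 6 genes did not move together. In the double knockout cat-4 and cat-1 were higher, cat-2, cat-3 and sod-1 were lower, and sod-2 was at the same mean level to within its error. Across the 9148 genes tested, 28.1% passed an adjusted p of 0.05 (edgeR quasi-likelihood test, Benjamini-Hochberg over all genes), with 16.1% of the genes tested higher and 11.9% lower in the double knockout. Higher genes made up 57.5% of these calls, against 35.8% on library totals without TMM, and the number of lower genes was 650 without double-knockout replicate 1 and 695 without its replicate 3, against 1093 with all libraries. Of the 6 genes, 5 passed, 2 as higher and 3 as lower. The strains did not overlap in CPM for the same 5, as was the case for 42.3% of all genes tested. The set of 6 genes and the contrast of cat-4 with the rest were chosen with earlier results of this comparison known, so these counts and the values that follow are a description, given without p-values.

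The transcript of cat-4 (NCU05169, linkage group IV, 5891820 to 5893430, minus strand, 2 counted intervals, 1551 bp) was the scarcest of the 6 in every library. It had 370, 454 and 295 counts in double-knockout replicates 1, 2 and 3, against 68, 166 and 154 counts in those of the single knockout. Scaled for depth these were 16.4, 15.6 and 17.5 CPM in the double knockout and 7.97, 5.90 and 7.14 CPM in the single knockout. All 3 double-knockout libraries lay above all 3 single-knockout libraries, with a wide gap between 7.97 and 15.6 CPM. The means were 16.5 ± 0.972 CPM in the double knockout and 7.001 ± 1.04 CPM in the single knockout (SD, n = 3 each), a fitted ratio of 2.38 and a log2 fold change of 1.25 (SE 0.193). Of all genes tested, 93.2% had a smaller log2 fold change.

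Among the catalases cat-1 (NCU08791, linkage group III, 5112007 to 5114365, plus strand, 2298 bp) moved in the same direction by less. Its level was 534, 436 and 499 CPM in the double knockout, against 314, 265 and 366 CPM in the single knockout. The lowest double-knockout library stood above the highest single-knockout library, with a log2 fold change of 0.63 (SE 0.164). On library totals the median gene stood at -0.20, and there the change of cat-1 was 0.43 and was no longer called.

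The transcripts of cat-2 and cat-3 were lower in the double knockout. For cat-2 (NCU05770, linkage group VII, 3765360 to 3767621, minus strand, 2262 bp) the libraries held 83.0, 81.3 and 69.3 CPM in the double knockout, against 133, 143 and 176 CPM in the single knockout. Every double-knockout library was thus well below every single-knockout library, and the log2 fold change was -0.95 (SE 0.159). The catalase of growing hyphae, cat-3 (NCU00355, linkage group III, 3561735 to 3564022, plus strand, 2160 bp), had 332, 371 and 264 CPM in the double knockout, against 387, 439 and 510 CPM in the single knockout. The gap between the strains was narrow for cat-3, with double-knockout replicate 2 close under single-knockout replicate 1. Its log2 fold change of -0.47 (SE 0.169) was called with all libraries but not in 5 of the 6 fits that left out 1 library each, where it ran from -0.56 to -0.34. It was called without double-knockout replicate 2.

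The superoxide dismutases differed from each other. For sod-1 (NCU02133, linkage group I, 1135379 to 1136288, minus strand, 465 bp) the double knockout had 246, 257 and 174 CPM, against 333, 454 and 387 CPM in the single knockout. The strains did not overlap, and the log2 fold change was -0.80 (SE 0.179). For sod-2 (NCU01213, linkage group V, 3262861 to 3263809, plus strand, 738 bp) the values were 168, 133 and 165 CPM in the double knockout, against 180, 130 and 156 CPM in the single knockout. Here the strains interleaved. The log2 fold change of sod-2 was 0.0024 (SE 0.165), with a 95% interval from -0.32 to 0.33, which leaves room for a change of that size in either direction. Within each library sod-1 stood above sod-2 per kilobase of counted length, by a factor of 2.32, 3.06 and 1.67 in the double knockout and of 2.93, 5.53 and 3.93 in the single knockout. These ratios overlapped between the strains.

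**Figure D1:**
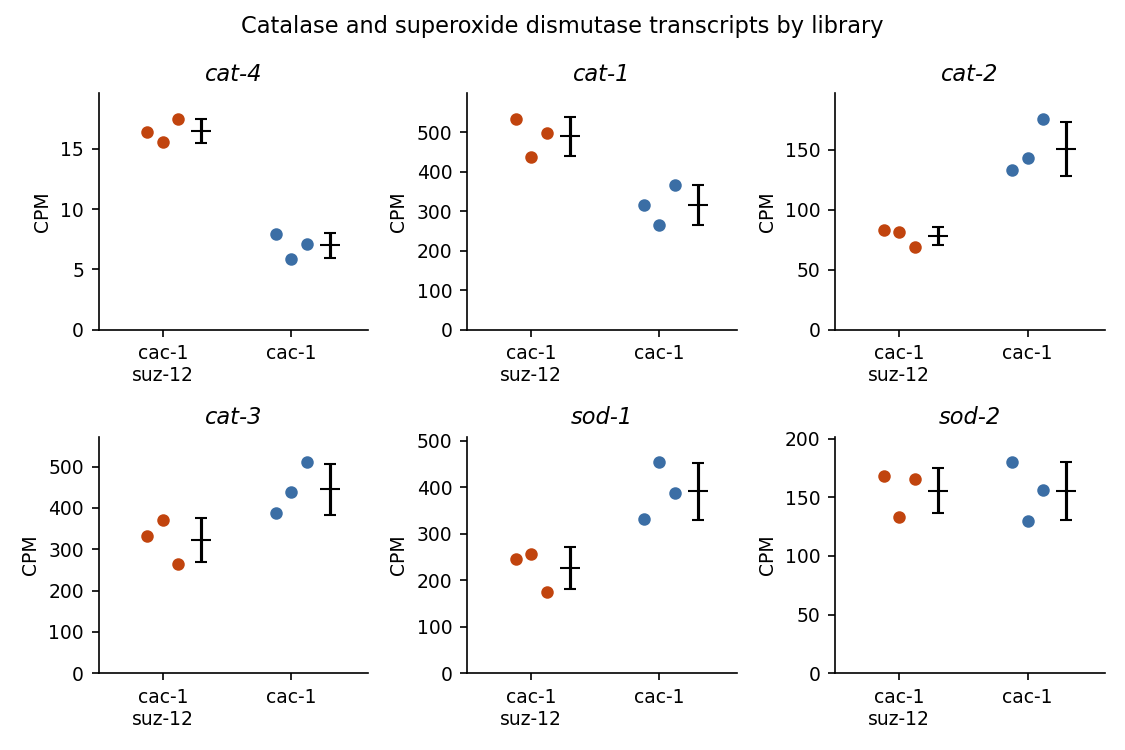
Level of each gene in CPM (y axis, from 0) in the 3 cac-1 suz-12 double-knockout libraries (left, orange) and the 3 cac-1 single-knockout libraries (right, blue), with mean ± SD in black. The strains are apart for cat-4 and cat-1 (higher in the double knockout) and for cat-2, cat-3 and sod-1 (lower), while those of sod-2 interleave between 130 and 180 CPM.

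Set against the other 5 genes, whose median log2 fold change was -0.47, cat-4 stood 1.72 higher on the log2 scale. The distance to cat-2, the catalase with the opposite extreme, was 2.21. The distance of cat-4 to the median depended little on how the libraries were scaled, and was 1.70 on library totals. Replicates of cat-4 were tight in the double knockout, with a coefficient of variation of 5.90%, against 14.8% in the single knockout. For the other 5 genes it was 9.64% or more in the double knockout and 13.9% to 16.1% in the single knockout.

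Levels of different genes were compared as CPM per kilobase of counted length. In the double knockout the order of the catalases was cat-1 at 213 ± 21.5, cat-3 at 149 ± 25.1, cat-2 at 34.4 ± 3.32 and cat-4 at 10.6 ± 0.627 CPM per kb (SD, n = 3). In the single knockout cat-3 came first at 206 ± 28.7, then cat-1 at 137 ± 22.1, cat-2 at 66.7 ± 9.88 and cat-4 at 4.51 ± 0.670 CPM per kb (SD, n = 3). Within each strain no 2 of the 4 catalases overlapped over the 3 libraries. The leading catalase was thus cat-1 in all 3 double-knockout libraries and cat-3 in all 3 single-knockout libraries. The ratio of cat-1 to cat-3 per kb was 1.51, 1.10 and 1.78 in the double knockout, against 0.764, 0.567 and 0.675 in the single knockout. Among all genes tested, cat-4 was placed above 44.1% of genes in the double knockout and above 26.5% in the single knockout by CPM per kb.

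The sum over the 4 catalases differed little. It was 433, 408 and 381 CPM per kb in the double knockout, against 380, 386 and 478 CPM per kb in the single knockout, so that the strains overlapped. The composition of this sum did not overlap for any of the 4 genes. The share of cat-4 was 2.44%, 2.46% and 2.96% in the double knockout, against 1.35%, 0.987% and 0.962% in the single knockout. The share of cat-2 was 8.48%, 8.82% and 8.03% in the double knockout, against 15.5%, 16.4% and 16.3% in the single knockout. The ratio of cat-2 to cat-4 per kb was 3.26 ± 0.473 in the double knockout and 15.0 ± 3.07 in the single knockout (SD, n = 3 each).

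**Figure D2:**
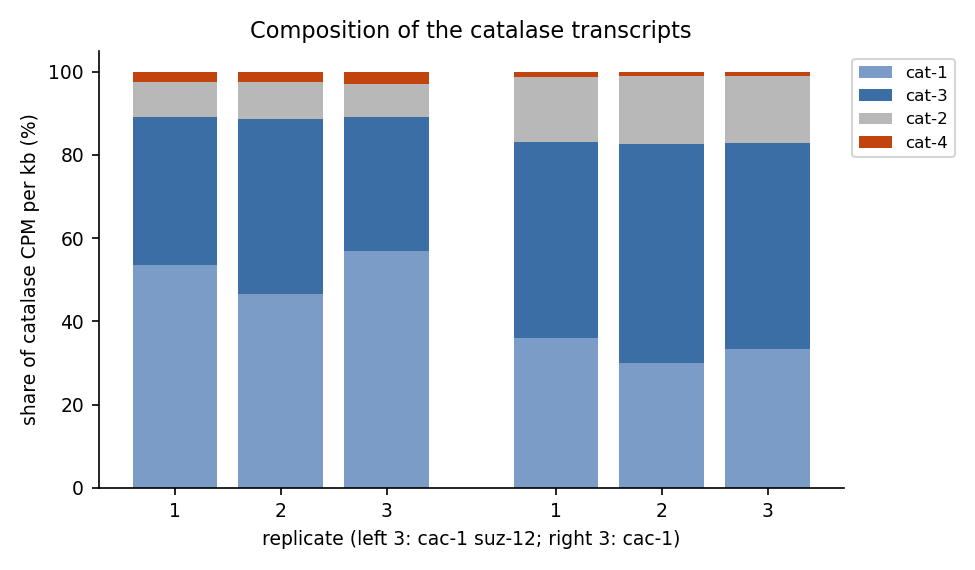
Share of each catalase gene (%, y axis) in the summed catalase CPM per kilobase of counted length, for each library (x axis, cac-1 suz-12 double knockout left, cac-1 single knockout right). In the double knockout cat-1 makes up 46.6% to 57.0% of the bar, against 29.9% to 36.0% in the single knockout, and cat-4 is the thin uppermost band in both.

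The position of the genes was examined because facultative heterochromatin of this fungus lies largely near chromosome ends. The distance from the counted span of cat-4 to the outermost counted base of linkage group IV was 57.4 kb, and for cat-1 on linkage group III it was 159 kb. The other 4 genes lay 468 kb (cat-2), 1135 kb (sod-1), 1709 kb (cat-3) and 3172 kb (sod-2) from the nearest end. The 2 genes within 200 kb of an end were the 2 that were higher in the double knockout, and the place of cat-4 near an end was known when it was chosen. Histone methylation at these genes was not examined here, and a link between position and the change in level was not tested. Many other genes near these ends were also called as higher. Within 200 kb of the end, these were 25 of 50 tested genes besides cat-4 on linkage group IV. On linkage group III they were 30 of 48 besides cat-1. Over all genes tested, 16.1% were called as higher. No counted span of the 6 genes overlapped another gene of the table on either strand.

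Neighbours of cat-4 were taken by position alone, as the 10 tested genes on either side. Of these 20 genes, 14 were called as higher in the double knockout and 0 as lower, where 16.1% of all genes tested were higher and 11.9% lower. Their median log2 fold change was 0.93, against -0.00089 over all genes tested. The number lower was also 0 at an unadjusted p under 0.05 and with DESeq2 and limma-voom. On the interior side NCU05180, which was not called, had a log2 fold change of -0.40 (SE 0.205). Its double-knockout libraries all lay below its single-knockout libraries. On the interior side 9 of 10 rose, with a median of 2.31, and on the side of the chromosome end 5 of 10 rose, with a median of 0.48. Larger log2 fold changes than that of cat-4 were found for 8 of the 20. Leaving out single-knockout replicate 1 or 2 brought the 14 down to 11, since calls of NCU05166 and NCU05160, and of NCU05165 or NCU05183, were lost. Neighbouring genes are not independent, and the table held 4 further genes in this window that were too low to be tested.

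The 5 genes next to cat-4 on the interior side all rose by more than cat-4. The nearest, NCU05170, whose counted span ends 1.98 kb from that of cat-4, stood at 142 ± 18.8 CPM in the double knockout and 23.1 ± 1.95 CPM in the single knockout (SD, n = 3 each), or 2.62 on the log2 scale (SE 0.164, edgeR adjusted p = 3.66e-09). The largest change of the 20 was that of NCU05173, at 33.8 ± 0.923 CPM in the double knockout and 1.24 ± 0.164 CPM in the single knockout (SD, n = 3 each), or 4.74 on the log2 scale (SE 0.210, edgeR adjusted p = 8.78e-11). NCU05172, NCU05175 and NCU05176 changed by 2.78, 3.06 and 2.98 on the log2 scale. NCU05175 rested on 2, 10 and 6 counts in the single knockout. The files give no name or product for these 5 loci.

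On the other side, cat-4 and pmb (NCU05168), which encodes a permease of basic amino acids, point away from each other on opposite strands, with 2.81 kb between the counted spans. The level of pmb was 40.7 ± 8.71 CPM in the double knockout and 12.02 ± 2.62 CPM in the single knockout (SD, n = 3 each), or 1.75 on the log2 scale (SE 0.204, edgeR adjusted p = 6.38e-06). The next 2 genes towards the end, NCU16902 and NCU16903, had log2 fold changes of -0.17 (SE 0.289) and 0.080 (SE 0.153) and were not called. NCU05166 and NCU05165 followed with 0.80 (SE 0.234) and 0.59 (SE 0.179), edgeR adjusted p = 0.0197 and 0.0210, and both calls were lost in some fits without 1 library. In all, 25 of the other 50 tested genes within 200 kb of this end rose and 1 fell. The shares over all genes tested were 16.1% higher and 11.9% lower.

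**Figure D3:**
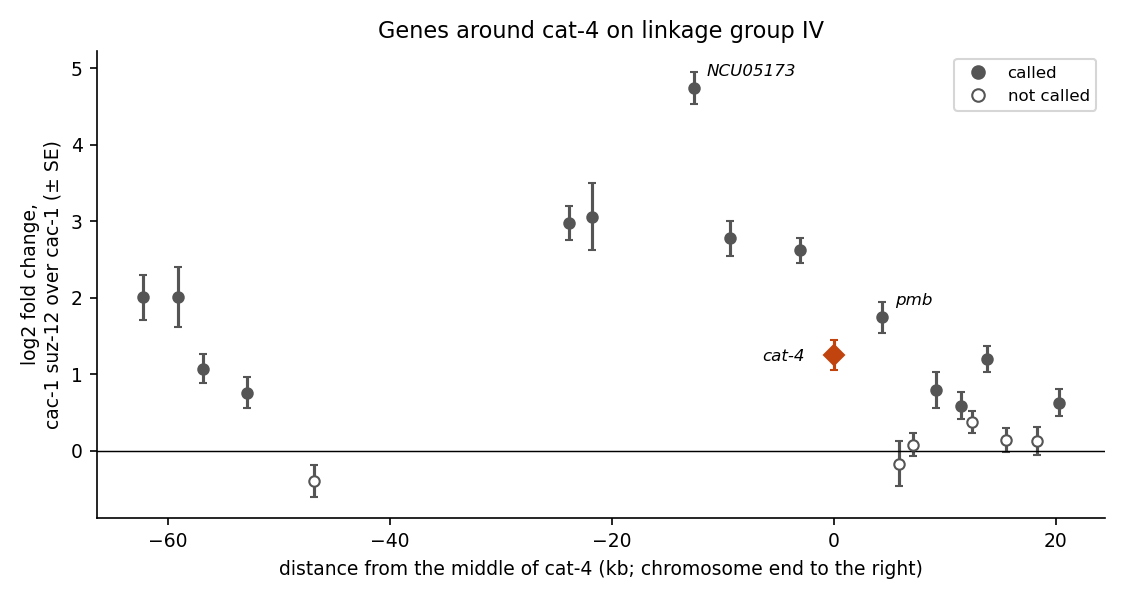
Log2 fold change of the double over the single knockout (y axis, ± SE) for cat-4 (orange diamond) and the 10 tested genes on either side, by distance in kb from the middle of cat-4 (x axis, chromosome end to the right). Filled symbols passed an edgeR adjusted p of 0.05. The 5 genes immediately to the left lie between 2.62 and 4.74, above cat-4 at 1.25, and those to the right of pmb lie between -0.17 and 1.20.

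The same 20 positions were read around each of the other 5 genes, where rose and fell again mean called as higher or lower. Over all genes tested, 16.1% were called as higher and 11.9% as lower. Around cat-1, 12 rose and 0 fell (0 also at an unadjusted p under 0.05 in edgeR, with DESeq2 and with limma-voom), with a median of 1.10. All 10 on the interior side of cat-1 rose, NCU08521 by the most (log2 fold change 3.66, SE 0.532), and 14 of the 20 had a larger log2 fold change than cat-1 itself. Around cat-3, 0 rose and 6 fell, with a median of -0.22, where 2 were higher at an unadjusted p under 0.05 in edgeR and 0 with DESeq2 or limma-voom. Around cat-2, 1 rose and 1 fell, around sod-1, 2 rose and 4 fell, and around sod-2, 2 rose and 1 fell, with medians of 0.070, -0.098 and 0.019. All 20 neighbours of cat-2 and 19 of the 20 of sod-1 had a higher log2 fold change than the gene between them.

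**Figure D4:**
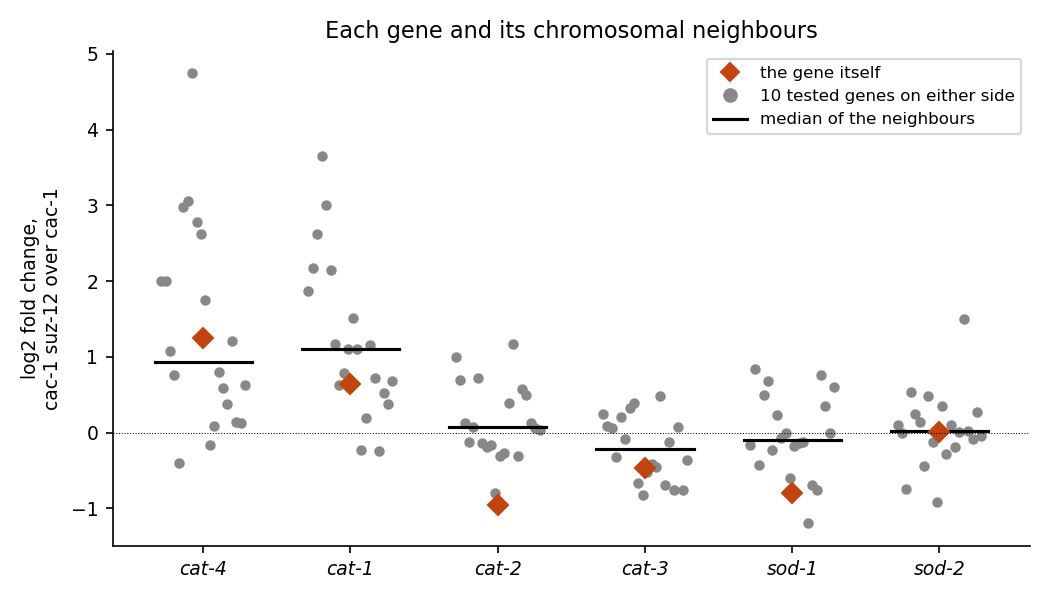
Log2 fold change of the double over the single knockout (y axis) for each of the 6 genes (orange diamond), its 10 tested neighbours on either side (grey, in chromosomal order) and their median (black line). The medians are 0.93 around cat-4 and 1.10 around cat-1, and between -0.22 and 0.070 around the other 4 genes, while cat-2 lies below all of its neighbours.

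Other genes linked to reactive oxygen were taken from a list of 14, which also holds regulators that do not themselves make or remove it. Of the 14, 7 passed the test, 2 higher and 5 lower in the double knockout, and none of these was a regulator. Of all genes tested 28.1% passed, 16.1% higher and 11.9% lower. The list's median log2 fold change was 0.025. Among the sources of superoxide, the NADPH oxidase gene nox-2 (NCU10775) fell to 58.8 ± 4.12 CPM in the double knockout, against 108 ± 15.7 CPM in the single knockout (SD, n = 3 each; log2 fold change -0.87, SE 0.155, edgeR adjusted p = 4.59e-04). Its paralog nox-1 and nor-1, the regulatory subunit of both, changed by -0.051 (SE 0.158) and 0.14 (SE 0.154) and were not called.

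Among the thiol-based enzymes, 3 of the 4 glutathione transferase genes of the list fell, where 11.9% of all genes tested were lower. The gene gst-4 (NCU10521) had 16.4 ± 4.69 CPM in the double knockout and 36.6 ± 9.65 CPM in the single knockout (SD, n = 3 each; log2 fold change -1.16, SE 0.229, edgeR adjusted p = 0.00161). On the log2 scale gst-2 changed by -0.90 (SE 0.187, edgeR adjusted p = 0.00184) and gst-3 by -0.85 (SE 0.147, edgeR adjusted p = 3.74e-04). The log2 fold change of gst-1, which was not called, stood at 0.038 (SE 0.167). The thioredoxin gene trx (NCU05731) rose, at 44.8 ± 5.06 CPM in the double knockout and 26.6 ± 3.97 CPM in the single knockout (SD, n = 3 each; log2 fold change 0.75, SE 0.163, edgeR adjusted p = 0.00251). In contrast cys-9, which encodes thioredoxin reductase, fell by 0.73 on the log2 scale (SE 0.225, edgeR adjusted p = 0.0236), a call that was lost in 4 of the 6 fits that left out 1 library each. The copper metallothionein gene cmt rose by 0.58 (SE 0.161, edgeR adjusted p = 0.0131), a call lost without double-knockout replicate 1, without single-knockout replicate 2 and on library totals.

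The regulators of the list were not called. The stress-activated MAP kinase gene os-2, the response regulators rrg-1 and rrg-2, and asl-1 (also atf-1), which encodes a bZIP factor, had log2 fold changes of 0.090, 0.11, 0.14 and 0.012, each with a standard error between 0.145 and 0.174. These 4 genes were expressed in both strains, from 24.2 to 119 CPM on average in the double knockout and from 23.9 to 112 CPM in the single knockout.

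**Figure D5:**
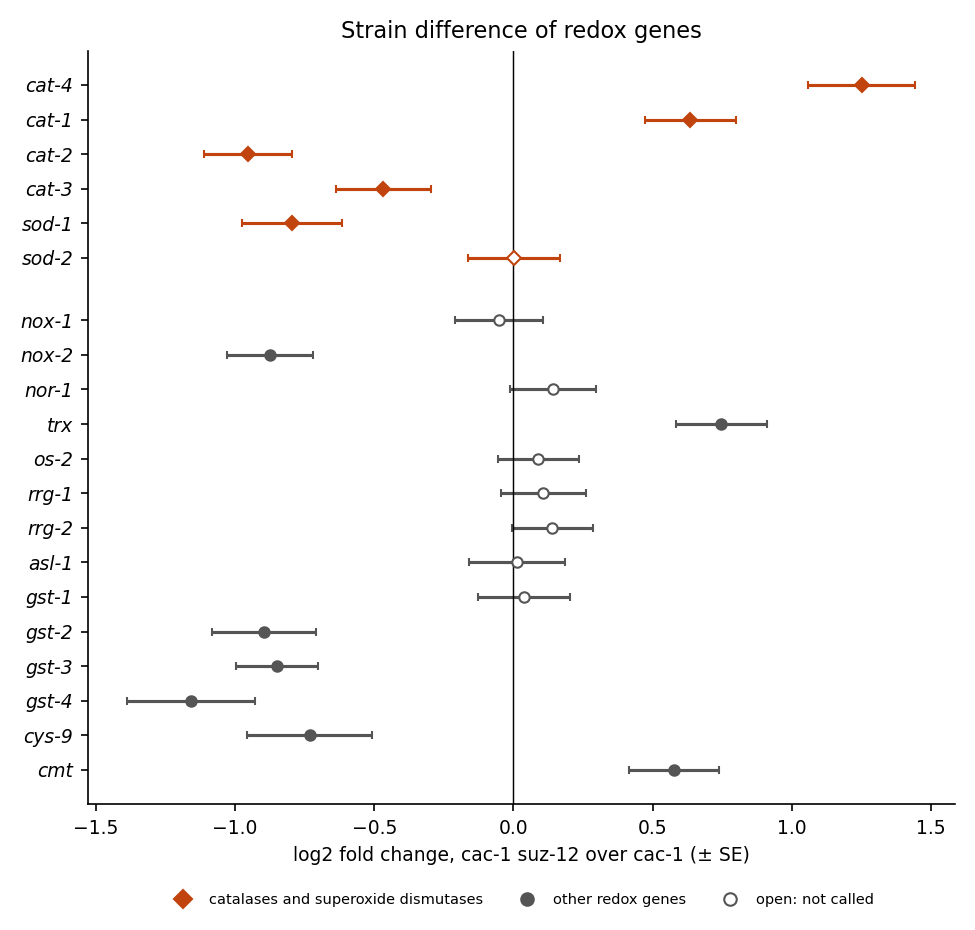
Log2 fold change of the double over the single knockout (x axis, ± SE) for the 6 catalase and superoxide dismutase genes (orange diamonds) and the 14 other redox genes (grey circles), filled where the edgeR adjusted p was under 0.05. The orange symbols spread from -0.95 for cat-2 to 1.25 for cat-4, and the 4 regulators os-2, rrg-1, rrg-2 and asl-1 lie near 0.

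Because CAT-1 is abundant in conidia, 7 genes of conidia and their formation were read beside it. Their summed level was 157 to 194 CPM in the double knockout and 197 to 361 CPM in the single knockout, and none was at 0 counts in any library. Of the 7, con-6 rose (log2 fold change 1.71, SE 0.190, edgeR adjusted p = 3.72e-06), con-8 fell (-1.80, SE 0.191, edgeR adjusted p = 2.33e-06), and con-10, con-13, eas, fl and acon-3 were not called. Among these con-10 (-0.98, SE 0.331, edgeR adjusted p = 0.0550) was called as lower by DESeq2, by limma-voom, with DESeq2 size factors, on library totals, with the replicate block and without single-knockout replicate 2. The hydrophobin gene eas (-0.53, SE 0.214, edgeR adjusted p = 0.0770) was called as lower on library totals, with upper-quartile scaling, with the replicate block and without double-knockout replicate 2. In the other direction, acon-3 was at 0.81 (SE 0.434), without overlap between the strains, and fl at 0.37 (SE 0.295), while con-13 was at -0.54 (SE 0.590). The summed level leaned on con-8, which was at 50.9 ± 3.36 CPM in the double knockout and 177 ± 49.5 CPM in the single knockout (SD, n = 3 each). The position of con-6 is 67.4 kb from the end of linkage group III that cat-1 is also near. Within 200 kb of that end, 30 of 48 tested genes besides cat-1, con-6 among them, were called as higher and 0 as lower. Of all genes tested, 28.1% were called, 16.1% as higher and 11.9% as lower. Neither the part of conidial RNA in the levels of cat-1 nor a link between the position of con-6 and its rise was tested.

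The genes whose levels moved most like cat-4 were found by the root mean square difference of centred log2 CPM over the 6 libraries, among genes whose average log2 CPM was at least 0. They were NCU02680 (difference 0.0575), vad-5 (0.0640), NCU04986 (0.0653), NCU06330 (0.0857) and NCU16722 (0.0884). Over so few libraries this difference largely follows the strain contrast that was known when cat-4 was chosen. The log2 fold changes of the 5 ran from 1.24 to 1.37, beside 1.25 for cat-4. Shared regulation was not tested. None of the 5 lies among the 20 neighbours of cat-4, and only NCU16722, at the other end of linkage group IV, is within 200 kb of a chromosome end. Of the other catalases and superoxide dismutases cat-1 was the most alike, at 0.322 and rank 511 of 8780 genes, and cat-2 the least, at 1.11 and rank 8301. The most alike of the 20 neighbours was NCU05163 at 0.163 and rank 53.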

How the data were processed

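Raw read counts per gene were deposited by the authors in a single table. The file header has the layout of featureCounts output, with 1 column per alignment file and a length per gene, and per the submitters' processing notes the tools named include Trim Galore 0.6.10, STAR 2.7.11 and featureCounts of Subread 2.0.6. The genome build and the use of strand are not given in the sources used here. Gene lengths in bp, another column the authors deposited, were multiples of 3 for 98.8% of genes, so they are coding lengths. Columns were matched to libraries by library name and replicate, and 36 other columns of counts were not used. Linkage groups come from matching 9723 gene identifiers to the RefSeq table of the NC12 assembly, and positions are those of the deposited table. Of values from 1 to 20 counts, 80.9% were even, so a count may not be 1 fragment, and the floor of 3 counts covers counting error only. Standard errors and the 95% interval include the spread between replicates.

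Counts were fitted with edgeR 4.0.16 in R 4.3.3 (filterByExpr, which removed 609 of 9757 genes, TMM, robust quasi-likelihood, no replicate block). The standard error is the log2 fold change divided by the square root of F. Alternatives used DESeq2 1.42.0, limma 3.58.1, other scalings and filters, a replicate block, each library left out, and halved counts, added after the data were seen. The fit was tested on simulated data with far fewer changed genes than were called here. Its behaviour under so broad a change was not tested.

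The members and lists were chosen with earlier results of these data known. Named were the 6 genes, every called gene of the redox list up to 12, the 5 tested genes nearest to cat-4 on either side, the 5 most like it, the conidial genes and the deleted genes. Others were named after their values were seen, namely uncalled list genes, NCU05183, NCU05180, NCU05160 and NCU05163 near cat-4, and NCU08521. The redox list was planned on product names, which the tables do not give, so it rests on symbols, and cys-9 and cmt entered by general knowledge of their products. Reads shared with near-identical genes were not examined.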

Additional observations from a re-analysis of the deposited data

How the results depend on the processing

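The direction of cat-4, cat-1, cat-2, cat-3 and sod-1 was the same in all 15 alternatives, and the calls of cat-4, cat-2 and sod-1 held in each. The call of cat-3 was lost in 6, which were 10 counts in every library (-0.45) and every fit that left out 1 library except that without double-knockout replicate 2. The sign of sod-2, never called, was positive in 7 and negative in 8, from -0.20 to 0.12. On library totals, which by construction moved the median of all genes to -0.20 and left 35.8% of calls as higher (57.5% with TMM, 48.0% with upper-quartile scaling), cat-4 was at 1.05, cat-1 at 0.43, cat-2 at -1.15, 1861 genes were lower and 1 gene of the redox list was higher. Fits without 1 library each gave 1782 to 2674 called genes (650 to 1139 lower), 1129 to 1535 higher, 1 to 2 higher and 4 to 5 lower of the redox list, 11 to 14 higher neighbours of cat-4, log2 fold changes of 1.13 to 1.34 for cat-4, 0.52 to 0.75 for cat-1, -1.04 to -0.84 for cat-2, -0.58 to -0.34 for cat-3, -0.90 to -0.64 for sod-1 and -0.11 to 0.12 for sod-2, and a distance of cat-4 to the median of the others of 1.55 to 1.90. The lower calls were 650 without double-knockout replicate 1 and 695 without replicate 3. An adjusted p under 0.01 left 1526 genes. With 5 tested genes on either side 8 of 10 neighbours of cat-4 rose. With 20 on either side, fewer where the chromosome ended, 21 of 38 rose and 0 fell. Without division by length the cat-4 share of catalase counts was 1.83% in the double and 0.770% in the single knockout. The share per kb ran from 2.45% to 2.71% in the double and from 0.975% to 1.17% in the single knockout with 1 library left out. The replicate block gave 3009 called genes, 2547 of them shared with the 2569 called without it, changed no call of the 6 genes and ended none of the redox list or of the neighbours of cat-4. Deviations of same-numbered libraries correlated at -0.015, 0.097 and 0.17, so the numbers were not taken as pairs. Depth limits cat-4 most in single-knockout replicate 1, with 68 counts.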

Other observations

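Some further genes with a link to these enzymes were read after the values above were seen. Peroxisomes house hydrogen peroxide-producing oxidases in many organisms, and 20 genes with a pex symbol, which encode proteins of peroxisome formation, were tested. Of these 1 rose, pex14 (log2 fold change 0.97, edgeR adjusted p = 1.61e-04), and 2 fell, pex10 (-0.67, edgeR adjusted p = 0.0196) and pex16 (-0.50, edgeR adjusted p = 0.0193), and the median was -0.11. Over all genes tested 28.1% were called, 16.1% as higher and 11.9% as lower. Of the pex genes not called, pex11 (-0.44, SE 0.165, edgeR adjusted p = 0.0545) was called as lower in several alternatives, among them DESeq2 and the replicate block. Others, among them pex7 as lower and pex19 as higher, were called in fewer. The calls of pex10 and pex16 were lost when some single libraries were left out, among them double-knockout replicate 1. Of the 3 copper transporter genes, tcu-1 was at 7.74 ± 1.76 CPM in the double knockout and 21.9 ± 5.39 CPM in the single knockout (SD, n = 3 each; log2 fold change -1.50, SE 0.224, edgeR adjusted p = 9.07e-05), while tcu-2 and tcu-3 were not called.

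The gene egt-1, whose product starts the synthesis of the antioxidant ergothioneine, was at 2127 ± 347 CPM in the double knockout and 3210.2 ± 226 CPM in the single knockout (SD, n = 3 each; log2 fold change -0.59, SE 0.170, edgeR adjusted p = 0.0151). The alternative oxidase gene aod-1 fell by 0.58 on the log2 scale (SE 0.177, edgeR adjusted p = 0.0219). The calls of both were lost without double-knockout replicate 3 or single-knockout replicate 1, and that of aod-1 also without single-knockout replicate 2.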
